A study of Mus musculus with 2 samples.

Results

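Cytotoxic lymphocytes kill target cells by emptying granules onto them, and the genes behind this machinery were followed through the cells of dystrophic muscle. The 8 genes were Gzma, Gzmb, Prf1, Nkg7, Ncr1, Klrb1c, Klre1 and Eomes, taken by their symbols from 24984 genes in the count tables. Raw counts of unique molecular identifiers (UMIs, 1 per captured transcript) were read in cells with at least 500 detected genes. Cells were then divided by the CD3 genes Cd3d, Cd3e and Cd3g, whose products carry the signal of the T cell receptor. Cells with UMIs of at least 2 of the 3 genes are called Cd3-detected, and cells with none are called Cd3-none. All 8 genes had UMIs in both libraries.

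The cells were live mononuclear cells from hind limb muscle of mdx mice, a dystrophin-deficient model of Duchenne muscular dystrophy. Every mouse carried the mdx allele and Pax7-CreERT2 with the R26YFP reporter, and every mouse received tamoxifen for 5 days at 1.5 months of age and was sampled 1 month later. Ctrl mice were Yy1 +/+ and dKO mice were Yy1 f/f. The Cre driver is active in Pax7-expressing muscle stem cells (MuSCs), so the lymphocytes of dKO mice were not the cells targeted for deletion of Yy1, a zinc finger transcription factor. The label of the Ctrl library reads "no treatment", whereas the study's results text describes tamoxifen for both Ctrl and dKO mice. Each group was 1 library of cells pooled from 3 mice. No difference below therefore has a replicate check, no test was run, and the 95% intervals cover counting error only.

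In a killer cell, granzymes are serine proteases stored in the granule with perforin, the protein that opens the target membrane for them. Nkg7 is a granule membrane protein that takes part in degranulation. Natural killer (NK) cells carry these genes without a T cell receptor and recognise targets through germline-encoded receptors such as those encoded by Ncr1 (NKp46), Klrb1c (NK1.1) and Klre1. CD8 T cells acquire granule genes after activation, and the T-box factors Eomes and T-bet, with Runx3, are known regulators of the program in both lineages.

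In GENCODE M21 (GRCm38), Gzma lies on the minus strand at chr13:113093825-113100981 and Gzmb on the minus strand at chr14:56258838-56262260. Prf1 lies on the plus strand at chr10:61297833-61304680 and Nkg7 on the plus strand at chr7:43437073-43438249. Ncr1 is on the plus strand at chr7:4337724-4345164. Klrb1c, on the minus strand at chr6:128778485-128789215, and Klre1, on the plus strand at chr6:129577905-129585827, sit on the same chromosome. Eomes is on the plus strand at chr9:118478212-118486132.

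Promoter windows of RefSeq (GRCm38.p6), 250 bases before to 50 bases after each gene start, were searched for 2 letter strings on both strands. The Runx site TGTGGT (reverse ACCACA) was present in 7 of the 8 genes, Eomes being the exception, and in 18.9% of 27025 genes. The T-box site GGTGTGA (reverse TCACACC) was present in 1 of 8, in Nkg7, and in 4.60% of all genes. Such letter matches describe the sequence and do not show binding. The 150 bases before the RefSeq start are shown, 5′ to 3′ on the gene's strand, for both granzymes, perforin and the receptor gene Ncr1, because they let the position of the Runx letters be compared between the granule cargo and a surface receptor. Capitals mark the Runx letters.
Gzma, chr13:113100982-113101131, minus strand: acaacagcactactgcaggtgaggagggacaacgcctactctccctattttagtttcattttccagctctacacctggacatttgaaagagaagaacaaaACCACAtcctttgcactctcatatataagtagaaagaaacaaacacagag
Gzmb, chr14:56262335-56262484, minus strand: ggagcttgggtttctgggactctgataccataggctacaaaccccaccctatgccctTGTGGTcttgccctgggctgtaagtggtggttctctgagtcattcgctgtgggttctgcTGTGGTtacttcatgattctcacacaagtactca
Prf1, chr10:61297686-61297835, plus strand: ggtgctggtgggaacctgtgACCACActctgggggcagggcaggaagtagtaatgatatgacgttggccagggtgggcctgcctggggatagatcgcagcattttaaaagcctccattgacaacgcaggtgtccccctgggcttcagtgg
Ncr1, chr7:4337565-4337714, plus strand: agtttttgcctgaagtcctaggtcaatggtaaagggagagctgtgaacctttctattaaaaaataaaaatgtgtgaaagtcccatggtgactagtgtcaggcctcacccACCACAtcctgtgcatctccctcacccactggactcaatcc
Counted back from the start, the string ran from position -50 to -45 in Gzma and from -130 to -125 in Prf1. Gzmb had it at both -93 to -88 and -34 to -29. In the Ncr1 stretch shown it ran from -41 to -36.

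The Ctrl library held 4335 cells with at least 500 genes (median 8104 UMIs) and the dKO library 3329 (median 7969 UMIs). Cd3-detected cells numbered 76 in Ctrl (1.75%, 95% interval 1.38 to 2.19) and 108 in dKO (3.24%, 2.67 to 3.90), with medians of 3640.5 and 3312.5 UMIs. A further 36 Ctrl and 29 dKO cells had 1 CD3 gene. The remaining 4223 and 3192 cells were Cd3-none. The leukocyte gene Ptprc (CD45) was present in 72 of 76 and 94 of 108 Cd3-detected cells. The T cell genes Cd5 and Cd28 had 46 and 109 UMIs in the Ctrl cells and 77 and 177 in the dKO cells. Of the Cd3-detected cells, 8 in Ctrl and 7 in dKO also met the marker gate of another cell class, and the 2 libraries shared 7 barcodes. T cell receptor constant genes were not analysed here.

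An NK gate was set on Cd3-none cells with at least 2 of Il2rb, Klrk1, Txk and Klrd1, none of which is among the 8 genes. It took 58 cells in Ctrl (1.34%, 1.02 to 1.73) and 45 in dKO (1.35%, 0.988 to 1.80). Only 20 Ctrl and 14 dKO cells of this gate held a UMI of any of the 8 genes. Among the other 38 and 31 cells, the dendritic cell gene Cd209a was present in 22 of 38 and 18 of 31. The MHC class II gene H2-Ab1 was present in 37 of 38 and 29 of 31. Of all gate cells, 21 in Ctrl and 8 in dKO met the dendritic cell gate, and 9 and 5 the monocyte and macrophage gate. The gate therefore held a mixture of cells, and its values are given with that limit.

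Because of this mixture, Cd3-none cells with UMIs of at least 3 of the 8 genes were also described, a group chosen after the values had been seen. There were 22 such multi-member cells in Ctrl (0.51%, 0.32 to 0.77) and 12 in dKO (0.36%, 0.19 to 0.63), of which 17 and 10 passed the NK gate. Since the group is defined by these genes, their levels in it are a description. At the limit of this group, exactly 3 members were found in 3 Ctrl cells and 1 dKO cell, and exactly 2 members in 6 Ctrl and 6 dKO cells.

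The adaptor Fcer1g was present in all 22 and all 12 multi-member cells, and the adaptor Tyrobp (DAP12) in 20 of 22 and 11 of 12. Cd4 and Cd8b1 had no UMI in either library, which allows up to 13.7 CPM (UMIs of a gene per 1000000 UMIs of the group of cells) in Ctrl and 22.9 CPM in dKO, and Cd8a had 1 UMI in Ctrl. Ptprc was present in 20 of 22 and 12 of 12 cells. Of these cells, 3 in Ctrl and 2 in dKO also passed the gate of fibro-adipogenic progenitors (FAPs), and 5 and 3 passed a cycling gate of Mki67, Top2a and Birc5. Total UMIs per cell ran from 1542 to 37794 in Ctrl and from 1271 to 40669 in dKO.

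Summed over all cells kept, the 8 genes had 1666 UMIs in Ctrl and 1763 in dKO. Cd3-none cells held 86.1% of them in Ctrl (84.3 to 87.7) and 77.2% in dKO (75.2 to 79.1), and Cd3-detected cells held 12.5% and 21.5%. The 22 and 12 multi-member cells alone held 73.7% and 71.2%. Relative to the total UMIs of each group the order is the opposite. Of the Cd3-none cells, 3503 of 4223 in Ctrl and 2557 of 3192 in dKO passed the gate of a class other than NK cells. The summed level was 447 CPM in Cd3-detected cells and 32.0 CPM in all Cd3-none cells in Ctrl, and 686 and 41.3 CPM in dKO.

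The granzymes differed from each other in where they were found. Gzma, which encodes a tryptase, was almost entirely a gene of Cd3-none cells. Of its 721 UMIs in Ctrl, 704 (97.6%) were in Cd3-none cells and 8 in Cd3-detected cells. In dKO, 799 of 808 (98.9%) were in Cd3-none cells and 7 in Cd3-detected cells. The level in NK-gate cells was 808 CPM in Ctrl against 17.2 CPM in Cd3-detected cells, a ratio of 46.9 (23.6 to 109), and 1619 against 12.7 CPM in dKO, a ratio of 128 (61.7 to 319). Multi-member cells stood at 3131 CPM in Ctrl and 6083 CPM in dKO. Gzma UMIs per multi-member cell had a lowest value of 0, a median of 17 and a highest of 122 in Ctrl, and 0, 35.5 and 268 in dKO. The ranges overlapped, and the 3 highest cells carried 41.4% of the Ctrl and 68.5% of the dKO UMIs.

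Gzmb, the granzyme known for cleaving caspases, was spread over both kinds of cells. In Ctrl, 75 of 183 UMIs (41.0%) were in Cd3-detected cells and 106 (57.9%) in Cd3-none cells. In dKO, 83 of 309 (26.9%) were in Cd3-detected and 224 (72.5%) in Cd3-none cells. Of these 224 UMIs, 23 lay in a cell with mast cell genes, and 22 and 11 in cells with UMIs of Foxp3. The similar Cd3-detected levels, 161 CPM in Ctrl and 150 CPM in dKO, came from different numbers of cells. A single Ctrl cell held 69 of the 75 UMIs and only 4 of 76 cells carried the gene (5.26%, 1.45 to 12.9), whereas 15 of 108 dKO cells did (13.9%, 7.99 to 21.9) with at most 15 UMIs each. Without the highest cell of each library the levels were 13.2 and 125 CPM. NK-gate cells stood at 92.6 CPM in Ctrl, 0.57 times the Cd3-detected level (0.40 to 0.81), and at 355 CPM in dKO, 2.37 times it (1.80 to 3.12). The Ctrl direction rested on the cell with 69 UMIs. Without the highest cell of each side the ratio was 4.43 (1.86 to 12.8) in Ctrl and 1.48 (1.05 to 2.07) in dKO.

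Prf1, the perforin gene, had few UMIs. Of 35 in Ctrl, 32 were in Cd3-none cells and 2 in Cd3-detected cells, and of 19 in dKO, 16 and 3. All 16 of the dKO Cd3-none UMIs lay in multi-member cells, as did 29 of the 32 in Ctrl. The NK-gate level exceeded the Cd3-detected level by a ratio of 7.29 (1.78 to 64.1) in Ctrl and 6.50 (1.86 to 34.8) in dKO. With 2 and 3 UMIs on the Cd3-detected side these ratios are imprecise.

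Nkg7 was the member found in most Cd3-detected cells. It was present in 24 of 76 cells in Ctrl (31.6%) and 37 of 108 in dKO (34.3%). Its level was 230 CPM in Ctrl and 447 CPM in dKO. The ratio of NK-gate to Cd3-detected cells was 1.35 (1.06 to 1.72) in Ctrl and 0.94 (0.77 to 1.14) in dKO. The 38 and 31 gate cells without any of the 8 genes held 63.1% and 72.9% of the UMIs of the gate. In multi-member cells, a group that Nkg7 itself helps to define, the level was 1176 and 1406 CPM, or 5.11 times (4.06 to 6.46) and 3.15 times (2.59 to 3.82) that of Cd3-detected cells. Nkg7 was present in all 22 and all 12 multi-member cells, with 4 to 25 UMIs per cell in Ctrl and 1 to 45 in dKO. Only 21.0% of Nkg7 UMIs lay in Cd3-detected cells in Ctrl, against 52.1% in dKO.

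The receptor gene Ncr1 had no UMI in Cd3-detected cells of either library. The floor of 3 counts used for a count of 0 was 6.45 CPM in Ctrl and 5.43 CPM in dKO. All 38 Ctrl UMIs and all 11 dKO UMIs were in Cd3-none cells, and 36 and 10 of them in multi-member cells. The NK-gate level of 47.8 CPM in Ctrl and 17.6 CPM in dKO was thus at least 7.40-fold and at least 3.25-fold higher than in Cd3-detected cells, with 3 counts over the group as the floor. Ncr1 was found in 13 of 22 Ctrl and 5 of 12 dKO multi-member cells, with at most 9 and 4 UMIs.

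Klrb1c had 2 UMIs in Cd3-detected cells of Ctrl and 7 in those of dKO. The NK-gate level was 52.3 CPM in Ctrl and 46.3 CPM in dKO, and its ratio to the Cd3-detected level was 12.1 (3.12 to 104) and 3.66 (1.5 to 10.2). Klre1, whose product pairs with other lectin-like receptors, had 7 and 11 UMIs in Cd3-detected cells. Its ratio was 4.76 (2.14 to 12.5) in Ctrl and 3.77 (1.86 to 8.25) in dKO. Multi-member cells carried Klrb1c in 17 of 22 and 10 of 12 cells and Klre1 in 18 of 22 and 8 of 12. These genes belong to a family of close relatives on chromosome 6, so reads may have been divided or lost between copies.

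Eomes, the T-box factor, was present on both sides of the CD3 division. It had 7 UMIs in Cd3-detected and 45 in Cd3-none cells in Ctrl, and 21 and 30 in dKO. The NK-gate level was 55.2 CPM in Ctrl, 3.67 times the Cd3-detected level (1.61 to 9.75), and 57.3 CPM in dKO, 1.51 times it (0.82 to 2.82). Multi-member cells with Eomes numbered 15 of 22 in Ctrl and 10 of 12 in dKO.

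Taking the 2-fold limit across genes with at least 20 UMIs over both sides, 6 of 8 members were higher in NK-gate than in Cd3-detected cells in Ctrl and 4 of 6 in dKO, where Prf1 and Ncr1 had too few UMIs. Over all genes, 10.3% in Ctrl and 12.2% in dKO were higher by this limit. The median log2 ratio of the members was 2.56 in Ctrl and 1.56 in dKO, and that of all genes was -0.07 and -0.05. Gzmb and Nkg7 were the 2 members under the limit in Ctrl, and Nkg7 and Eomes in dKO. The place of Gzmb in Ctrl rested on 1 cell, and without the highest cell of each side it was past the limit in Ctrl and under it in dKO.

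**Figure D1:**
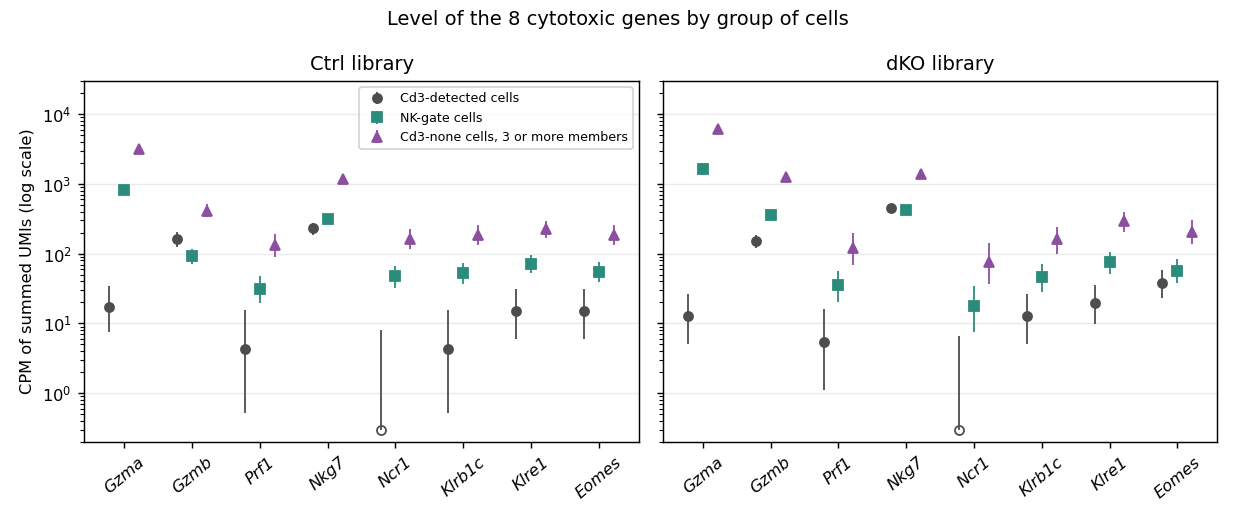
Level of each gene as CPM of summed UMIs on a log axis, for Cd3-detected cells (circles), NK-gate cells (squares) and Cd3-none cells with UMIs of 3 or more of the 8 genes (triangles), in the Ctrl and dKO libraries. Lines are exact 95% Poisson intervals, and open circles at the lower edge mark 0 UMIs, with the line reaching the upper limit. Gzma stood at 17.2 and 12.7 CPM in Cd3-detected cells and at 3131 and 6083 CPM in the triangles, whereas Nkg7 stood at 230 and 447 CPM in the circles and at 1176 and 1406 CPM in the triangles.

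The members were found together in few cells. Of the 76 Cd3-detected cells in Ctrl, 50 had none of the 8 genes, 18 had 1, 6 had 2 and 2 had 3 or more. In dKO, 67 of 108 had none and 8 had 3 or more. Of the Cd3-none cells, 4130 of 4223 in Ctrl and 3153 of 3192 in dKO had none. All 8 genes were present in 5 Ctrl cells and 1 dKO cell, each of them Cd3-none. Over all cells kept, 19 of 32 Gzma-positive cells in Ctrl also carried Gzmb and 22 carried Nkg7, and in dKO 15 and 14 of 18. Ncr1 was accompanied by Nkg7 in 14 of 15 Ctrl cells and 6 of 6 dKO cells, but by Gzma in 9 of 15 and 4 of 6.

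The cell with most Gzma in Ctrl, 122 UMIs of 15775 in total, had all 8 genes, including 25 UMIs of Nkg7 and 6 of Eomes. The top dKO cell had 268 UMIs of Gzma, 81 of Gzmb, 5 of Prf1 and 33 of Nkg7, but none of Ncr1, in a total of 18037. The 8 genes together made up at most 4.21% of the UMIs of a Ctrl multi-member cell, with a median of 0.782%. Among the 22 Ctrl cells, 4 had no Gzma. These 4 cells all had Nkg7 (6 to 14 UMIs), Ncr1 (1 to 6 UMIs) and the chemokine gene Xcl1 (2 to 80 UMIs), and 1 of them had the integrin gene Itga1 while none had Itga2. In dKO, 2 of 12 cells had no Gzma.

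**Figure D2:**
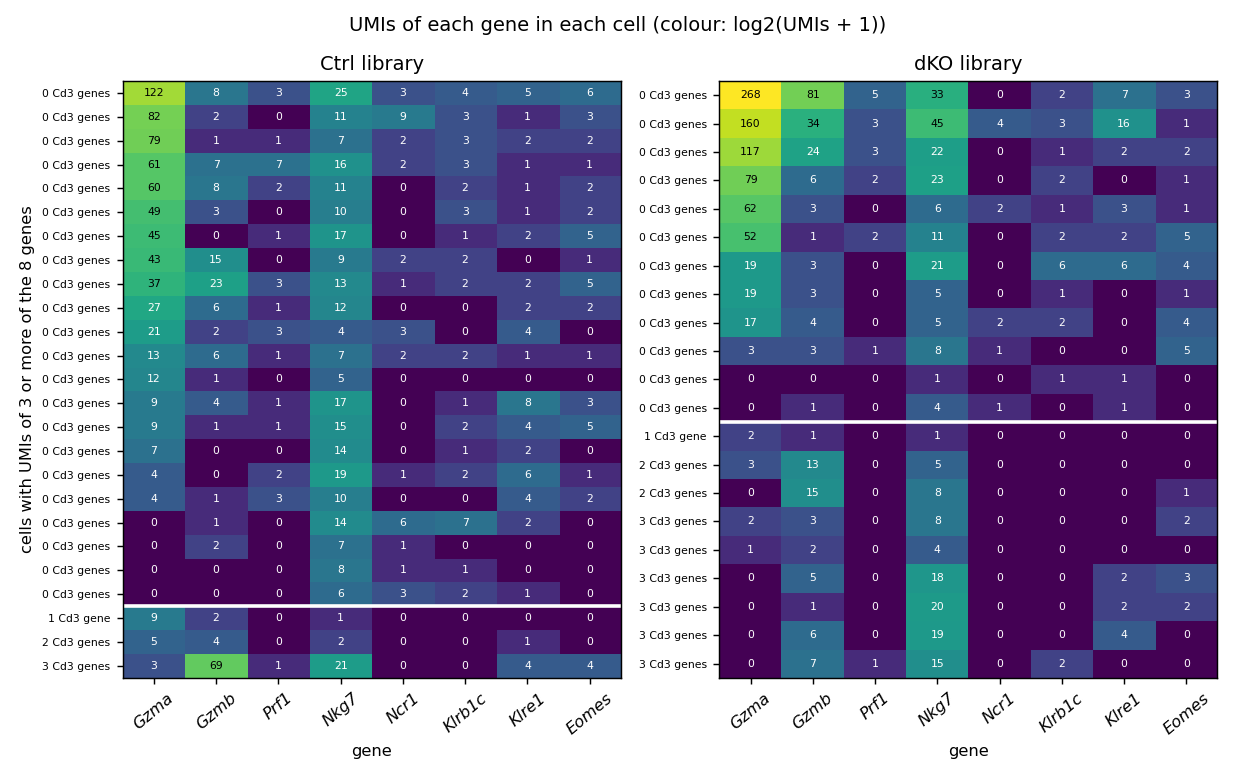
UMIs of each gene (columns) in every cell with UMIs of 3 or more of the 8 genes (rows), coloured by log2(UMIs + 1), in Ctrl on the left and dKO on the right. Cells above the white line are Cd3-none (22 and 12) and cells below it have 1 to 3 CD3 genes. The Cd3-none cells are ordered by Gzma, from 122 to 0 UMIs in Ctrl and from 268 to 0 in dKO, and no cell below the line has a UMI of Ncr1.

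Cd3-detected cells were divided by the coreceptor genes. Cells with Cd8a or Cd8b1 and no Cd4 numbered 15 in Ctrl and 25 in dKO, and cells with Cd4 only 27 and 24. Neither was found in 33 and 59 cells, and 1 Ctrl cell had both. In CD8 cells, Nkg7 was present in 14 of 15 (93.3%, 68.1 to 99.8) in Ctrl and 20 of 25 (80.0%, 59.3 to 93.2) in dKO. In CD4 cells it was present in 6 of 27 (22.2%, 8.62 to 42.3) and 6 of 24 (95% interval 9.77 to 46.7%). Median depth was similar, at 4143 UMIs in CD8 and 3708 in CD4 cells of Ctrl, and 3976 and 3719.5 in dKO.

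Eomes was present in 4 of 15 CD8 cells in Ctrl and 9 of 25 in dKO, and in none of the 27 and 24 CD4 cells. Of the 4 Ctrl Eomes carriers all 4 had Nkg7, as did 10 of the 11 in dKO over all Cd3-detected cells. Klre1 was present in 3 CD8 cells of each library and in no CD4 cell. Gzma was present in 2 of 15 and 3 of 25 CD8 cells and in no CD4 cell, with at most 5 and 3 UMIs per cell. Prf1 was present in 1 and 3 CD8 cells with 1 UMI each. Klrb1c in dKO was present in 1 CD8 cell, 1 CD4 cell and 3 cells with neither, and in Ctrl in 1 cell with neither. A count of 0 among 27 and 24 CD4 cells allows a share of cells with a UMI of up to 12.8% and 14.2% (exact binomial), which sets no limit on cells that express a gene below detection.

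Gzmb did not keep to CD8 cells in the dKO library. It was present in 8 of 25 CD8 cells, 4 of 24 CD4 cells and 3 of 59 cells with neither, with at most 15, 9 and 11 UMIs in a cell. In Ctrl it was present in 2 of 15, 1 of 27 and 1 of 33. Of the Cd3-detected cells with Foxp3, the factor that defines regulatory T cells, 4 of 15 in dKO carried Gzmb with 20 UMIs in all, and 1 of 14 in Ctrl with 1 UMI. These cells had no UMI of Gzma, Prf1, Ncr1, Klrb1c, Klre1 or Eomes in either library.

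**Figure D3:**
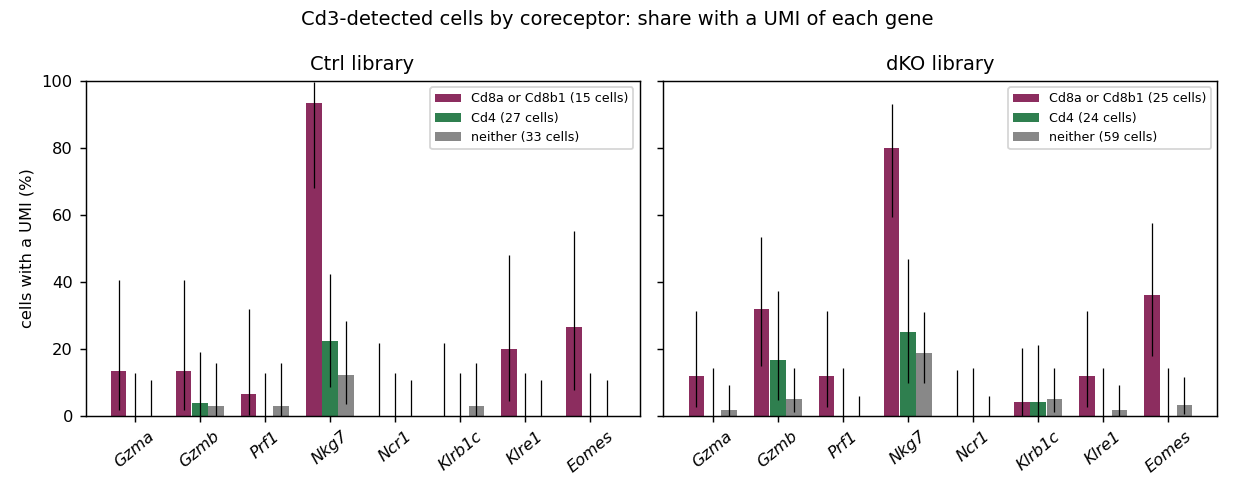
Share of Cd3-detected cells with a UMI of each gene, divided into cells with Cd8a or Cd8b1, with Cd4, and with neither, in Ctrl and dKO. Bars start at 0 and lines are exact 95% binomial intervals. Nkg7 reached 93.3% and 80.0% of CD8 cells but only 6 of 27 and 6 of 24 CD4 cells.

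Shares of cells with a UMI depend on depth and on free RNA, so they were compared with classes that should lack these genes. In FAP-gate cells, with a median of 13008 UMIs in Ctrl and 13037 in dKO, Gzma was present in 0.368% and 0.273% of cells and Nkg7 in 0.368% and 0.365%. These FAP-gate cells include the 3 Ctrl and 2 dKO multi-member cells that passed the FAP gate, all with Gzma and Nkg7. The EC gate below includes 2 multi-member cells in Ctrl and 0 in dKO. The shares are therefore not a background of free RNA alone. In endothelial cells (EC gate, median 5868.5 and 5505.5 UMIs), Gzma was present in 0.631% of Ctrl cells and in 0 of 266 dKO cells, and Nkg7 in 0.946% and 0.376%. B cells had 1 UMI of Gzmb in 1 of 148 Ctrl cells and none of any member in 84 dKO cells. After thinning each cell to 1000 UMIs, which left out no Cd3-detected cell in Ctrl and 2 in dKO, Nkg7 was present in 19.7% (11.5 to 30.5) and 17.9% (11.2 to 26.6) of Cd3-detected cells and in 0 of 1084 Ctrl and 0 of 1096 dKO FAP-gate cells. Prf1 in Cd3-detected cells was present in 1.32% and 0% after thinning, and no difference from the background can be read at this depth.

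The study compared Ctrl with dKO to learn how loss of Yy1 in MuSCs alters the muscle niche. In Cd3-detected cells the summed level of the 8 genes was 447 CPM in Ctrl and 686 CPM in dKO, a ratio of 1.53 (1.29 to 1.82). Nkg7 was 1.94 times higher in dKO (1.54 to 2.46), with 107 and 247 UMIs, and Eomes 2.52 times higher (1.03 to 7.02), with 7 and 21 UMIs. Gzmb had a ratio of 0.93 (0.67 to 1.29). The other 5 genes had fewer than 20 UMIs over both libraries, so that ratios such as 0.74 for Gzma (0.23 to 2.32) and 1.32 for Klre1 (0.47 to 4.02) are imprecise. Of the 3 members with at least 20 UMIs, 1 passed 2-fold, and over all genes 12.9% did in either direction. The summed log2 ratio of 0.62 rested on few cells. It was 1.45 without the highest cell of each library, and 0.0052 without the 8 Ctrl and 7 dKO cells that also met another gate. For Nkg7 the log2 ratio of 0.96 became 0.35 without these cells. The member past 2-fold was Eomes, and its log2 ratio of 1.33 became 0.63 (-0.70 to 2.13) without these cells, no longer past the limit. For Gzmb the direction depended on the setting, from -0.77 without these cells through -0.10 to 0.57 with the mean of each cell's own CPM and 3.24 without the highest cells.

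In CD8 cells alone, Nkg7 was 902 CPM in Ctrl and 1300 CPM in dKO, a ratio of 1.44 (1.09 to 1.93). Per cell it ran from 0 to 21 UMIs with a median of 2 in Ctrl and from 0 to 25 with a median of 5 in dKO, so the ranges overlapped. At least 5 UMIs were found in 4 of 15 and 13 of 25 cells. Gzmb went the other way, with 969 and 352 CPM and a ratio of 0.36 (0.25 to 0.53), but without the top cell of each library it was 61.7 and 263 CPM, so the direction turned.

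In NK-gate cells the summed ratio was 1.79 (1.64 to 1.95). Gzma was 808 CPM in Ctrl and 1619 CPM in dKO, a ratio of 2.0 (1.79 to 2.24), and Gzmb 92.6 and 355 CPM, a ratio of 3.84 (2.85 to 5.23). Ncr1 was lower in dKO, at 47.8 and 17.6 CPM with 32 and 8 UMIs, a ratio of 0.37 (0.15 to 0.82). Klre1, Eomes and Klrb1c had ratios of 1.05 (0.65 to 1.66), 1.04 (0.60 to 1.76) and 0.89 (0.49 to 1.57), and Prf1 1.13 (0.55 to 2.26). Thus 2 of 8 members were higher and 1 lower by 2-fold, and 8.47% of all genes passed in either direction. In this gate 21 of 58 Ctrl cells and 8 of 45 dKO cells also met the dendritic cell gate. Without cells that met any other gate, the log2 ratio was 0.52 for Gzma and 1.47 for Gzmb in place of 1.00 and 1.94, and with the mean of each cell's own CPM it was 0.29 and 0.85.

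Multi-member cells gave similar ratios for the granzymes, with 1.94 for Gzma (1.75 to 2.16) and 2.99 for Gzmb (2.30 to 3.91). Ncr1 was at 0.46 (0.21 to 0.95), with 36 and 10 UMIs. The other 5 genes lay between 0.86 and 1.29, each with an interval that spans 1. By 2-fold, 1 member was higher and 1 lower, against 15.1% of all genes in either direction. These ratios came from few cells. The top dKO cell held 49.7% of the Gzmb UMIs of its group and the 3 highest held 85.3%. When each cell counted equally, as the mean of each cell's own CPM, the log2 ratio was 0.07 for Gzma and 0.12 for Gzmb in place of 0.96 and 1.58.

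In all Cd3-none cells, fewer cells of a type and less RNA per cell cannot be told apart. Gzmb was 2.87 times higher in dKO (2.27 to 3.65) and Gzma 1.54 times higher (1.39 to 1.71). The dKO UMIs of Gzmb include 23 in the cell with mast cell genes, and 22 and 11 in the cells with Foxp3 described above. Ncr1 was at 0.39 (0.18 to 0.78), Klrb1c at 0.55 (0.33 to 0.88) and Nkg7 at 0.73 (0.62 to 0.87). Of the 62 Ctrl UMIs of Klrb1c, 17 lay in 15 monocyte and macrophage gate cells, against 0 of the 25 in dKO. The Klrb1c ratio without these cells was not computed. For Nkg7, 97 of the 392 Ctrl UMIs lay in cells with at least 2 of Elane, Mpo and Prtn3, genes of neutrophil precursors, and without such cells the ratio was 0.96 (0.80 to 1.15). Here 1 of 8 members was higher and 1 lower by 2-fold, and 6.15% of all genes passed in either direction. For Gzma the log2 ratio turned from 0.62 to -0.45 with the mean of each cell's own CPM. Gzma was present in 29 of 4223 Ctrl cells and 13 of 3192 dKO cells.

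**Figure D4:**
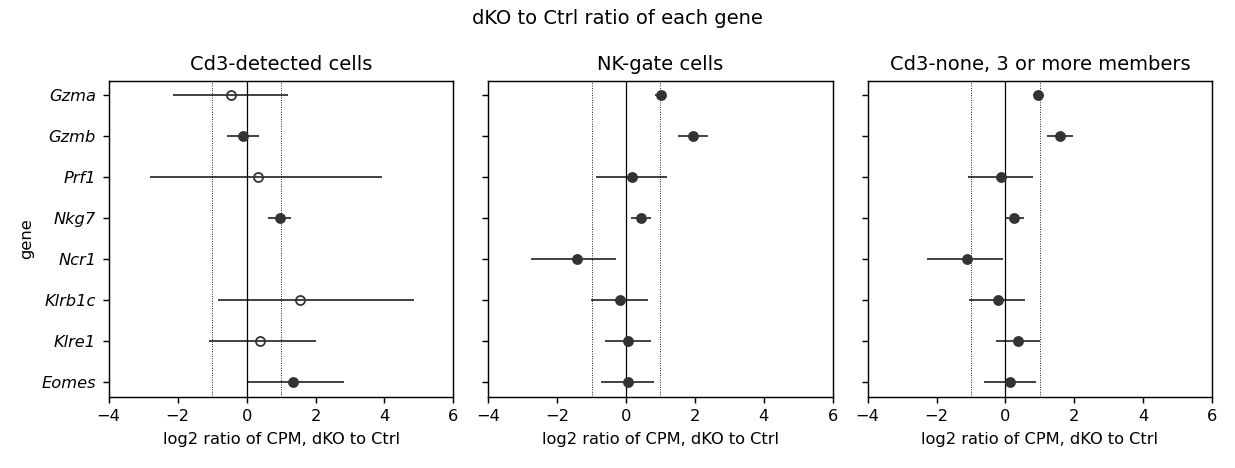
Ratio of dKO to Ctrl on a log2 axis for each gene in Cd3-detected cells, NK-gate cells and Cd3-none cells with 3 or more of the genes. Lines are exact 95% counting intervals, open circles mark genes with fewer than 20 UMIs over both libraries, dotted lines mark 2-fold, and Ncr1 has no value in Cd3-detected cells. Gzma and Gzmb lie right of 0 in both Cd3-none panels and Ncr1 left of it, while in Cd3-detected cells Nkg7 and Eomes lie to the right.

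Other genes of the pathway were read as lists chosen by role. In multi-member against Cd3-detected cells, NK receptor genes were 2-fold higher in 8 of the 12 with enough UMIs in Ctrl and in 5 of 8 in dKO, where 10.6% and 10.7% of all genes were. In each library 2 genes of the list were 2-fold lower, and 10.9% and 15.6% of all genes were. The Ly49 gene Klra7 had 51 UMIs against 2 in Ctrl, a ratio of 54.3 (14.3 to 460.1), and 19 against 2 in dKO, a ratio of 40.1 (9.68 to 355). Klra9 had 34 against 0 in Ctrl, at least 24.1-fold higher, and 18 against 2 in dKO. Klrc1 (NKG2A) was 4.66 times (2.73 to 8.22) and 4.35 times higher (2.62 to 7.25). Klrd1 was 7.23 times (4.004 to 13.9) and 4.22 times (2.38 to 7.48) higher, and Klrk1 6.61 times (3.88 to 11.7) and 2.65 times (1.58 to 4.39), but both genes belong to the NK gate that most of these cells pass. In Ctrl, Klrb1f was 12.2 times higher (4.18 to 48.7), and Klra3 had 23 UMIs against 0, at least 16.3-fold higher. The 2 lower genes were Cd96, which encodes an adhesion receptor, at 0.29 (0.06 to 0.97) and 0.28 (0.03 to 1.11), and the SLAM receptor gene Slamf6, with 2 UMIs against 24 in Ctrl and 0 against 38 in dKO. Ly49 genes are near-identical copies, so their reads may have been divided between them.

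All 7 measured coreceptor and T cell genes (Cd4, Cd8a, Cd8b1, Cd5, Cd6, Cd28 and Foxp3) were lower in multi-member cells in both libraries. Of all genes 10.9% in Ctrl and 15.6% in dKO were lower. Because the groups were split by the CD3 genes, lower levels of T cell genes follow from that choice and are a description. Cd28 had 9 UMIs against 109 in Ctrl and 10 against 177 in dKO. The T cell adaptor Lat was lower in both, with ratios of 0.11 (0.03 to 0.26) and 0.06 (0.01 to 0.23), and so was the interleukin 7 receptor gene Il7r, with 0.05 (0.02 to 0.12) and 0.07 (0.02 to 0.18). Of the signalling adaptor list, Cd247 at 0.28 (0.09 to 0.71) and Zap70 at 0.25 (0.08 to 0.62) were also lower in Ctrl, and Lcp2 at 0.50 (0.17 to 1.16) in dKO. No gene of this list was 2-fold higher in Ctrl, and the 3 higher genes in dKO were Fcer1g at 4.51 (3.71 to 5.48), Tyrobp at 3.805 (3.02 to 4.79) and Txk, a gene of the NK gate, at 2.53 (0.98 to 6.18). For Fcer1g and Tyrobp the Ctrl result rested on Cd3-detected cells that also met another gate. Without them the Ctrl Cd3-detected levels were 19.4 and 15.5 CPM in place of 818 and 910. Ctrl multi-member cells stood at 1126 and 1277 CPM. In dKO the Cd3-detected levels became 93.2 and 48.9 CPM in place of 373 and 291. Among cytokine receptor genes, Il2ra and Il21r were lower in both libraries, Il18rap was 6.58 times higher in Ctrl (3.25 to 14.4), and Il2rb, also a gene of the NK gate, 3.77 times (2.67 to 5.32) and Ifngr1 2.05 times higher (1.63 to 2.57) in dKO. Transcription factors of T cells, Tcf7, Lef1, Ikzf2, Gata3 and Tox, were lower in both, and Ikzf3 at 0.28 (0.06 to 0.88) in dKO. In all, 5 of 15 factors were lower and 4 higher in Ctrl, and 6 of 15 lower and 0 higher in dKO. Of all genes, 10.9% were lower and 10.6% higher in Ctrl, and 15.6% lower and 10.7% higher in dKO. Tbx21 (T-bet) was 10.1 times higher in Ctrl (3.36 to 40.9) but did not pass 2-fold in dKO.

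Granule protection and sorting genes differed too. Serpinb9, an inhibitor of granzyme B, was 5.88 times (3.32 to 10.9) and 13.4 times (8.29 to 22.5) higher in multi-member cells of Ctrl and dKO. Serpinb6b, which encodes an inhibitor of granzyme A, was 10.2 times (5.8 to 19.2) and 6.88 times (4.17 to 11.6) higher, and the granule cathepsin Ctsw 3.71 and 3.08 times. Of 9 cargo and processing genes, 3 passed 2-fold higher in Ctrl and 5 in dKO, and 1 was lower in each. Of all genes, 10.6% were higher and 10.9% lower in Ctrl, and 10.7% and 15.6% in dKO. Lamp1, a lysosome and granule membrane gene, was the lower one in Ctrl at 0.42 (0.32 to 0.56), and Ctsc, whose product activates granzymes, in dKO at 0.28 (0.11 to 0.60). The Lamp1 direction in Ctrl rested on Cd3-detected cells that also met another gate. Without them the Cd3-detected level was 105 CPM in place of 701, against 298 CPM in multi-member cells, so the direction turned. Cd63 was at 0.72 in Ctrl and at 3.41 (2.46 to 4.71) in dKO, and Calr at 2.18 (1.79 to 2.65) in dKO. Without Cd3-detected cells of another gate, their Cd63 level was 15.5 CPM in Ctrl in place of 521, and 18.6 CPM in dKO in place of 159. Multi-member cells stood at 375 and 543 CPM, so the Ctrl direction turned. Gzmc had 21 UMIs against 0 in dKO, at least 29.6-fold higher. Of the granule exocytosis genes with enough UMIs, 1 of 7 in Ctrl (Lyst) and 0 of 6 in dKO were higher by 2-fold. In each library 2 were lower. The higher share of all genes was 10.6% in Ctrl and 10.7% in dKO, and the lower share 10.9% and 15.6%. Stx11 was at 0.44 (0.16 to 1.00) and 0.28 (0.03 to 1.11), Rab27a at 0.38 (0.07 to 1.30) in Ctrl, and Lyst at 2.13 (1.00 to 4.54) in Ctrl but 0.26 (0.03 to 1.00) in dKO.

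Of the death ligand and cytokine genes, 5 of 8 were higher and 2 lower in multi-member cells of Ctrl, and 2 of 7 higher and 2 lower in dKO. Ccl3, at 0.38 (0.23 to 0.59), was 1 of the 2 lower in Ctrl. Without Cd3-detected cells of another gate, its Ctrl Cd3-detected level was 15.5 CPM in place of 280. Multi-member cells stood at 105 CPM, so the direction turned. Of all genes 10.6% were higher and 10.9% lower in Ctrl, and 10.7% and 15.6% in dKO. The chemokine gene Xcl1 was 30.0 times (16.3 to 61.3) and 8.92 times (4.97 to 16.6) higher, and Ccl5 3.94 times (3.49 to 4.46) and 3.53 times (3.19 to 3.90). In Ctrl, Ccl4 was 8.90 times (6.05 to 13.4) and the death ligand gene Fasl 4.96 times (2.18 to 12.3) higher. Ifng was 3.81 times higher in Ctrl (2.70 to 5.44) but at 0.26 (0.09 to 0.58) in dKO. Without the highest cell of each side for the gene, Ifng was at 3.73 (2.25 to 6.30) and 0.17 (0.02 to 0.64). Tnf had 3 UMIs against 21 in Ctrl and 0 against 26 in dKO.

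Between the libraries, 3 of the 6 genes with enough UMIs in the list of death ligands and cytokines were 2-fold lower in dKO multi-member cells and 0 were higher, beside 9.82% of all genes lower and 5.29% higher. The other 3 were Fasl at 0.80, Ccl3 at 0.87 and Ccl5 at 1.62. Ifng, the interferon gamma gene, had 95 UMIs in 11 of 22 Ctrl cells and 6 UMIs in 2 of 12 dKO cells, a ratio of 0.11 (0.04 to 0.24), with up to 50 UMIs in a Ctrl cell. Ccl4 was at 0.30 (0.19 to 0.47). Xcl1 was at 0.41 (0.28 to 0.59), with 123 of its 155 Ctrl UMIs in the 4 cells without Gzma. Without the highest cell of each library for the gene, Ifng was at 0.082 (0.0096 to 0.31), with 45 and 2 UMIs, Ccl4 at 0.23 (0.12 to 0.41) and Xcl1 at 0.55 (0.34 to 0.87), no longer past 2-fold. Also lower in dKO were Ctsc at 0.24 (0.09 to 0.53) and 2 of 7 transcription factors, Zeb2 at 0.41 (0.17 to 0.86) and Tcf7 at 0.42 (0.10 to 1.29). Higher in dKO were Gzmc at 5.01 (2.05 to 13.9), Serpinb9 at 2.59 (1.77 to 3.82) the interleukin 2 receptor gene Il2rb at 2.28 (1.56 to 3.37) and the lectin-like receptor gene Klri2 at 2.0 (0.95 to 4.27). Gzmc resembles Gzmb in sequence, and reads may be shared between them. No other gene of the other granzymes list reached 20 UMIs in this comparison.

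In Cd3-detected cells, 4 of 15 transcription factor genes were 2-fold higher in dKO, where 5.64% of 5767 genes were higher by this limit. Tbx21 had 4 and 18 UMIs, a ratio of 3.78 (1.25 to 15.4), followed by Prdm1 at 2.35 (1.11 to 5.43), Stat4 at 2.24 (1.12 to 4.78) and Ikzf3 at 2.10 (1.19 to 3.86). Ccl4 was 4.41 times higher (3.02 to 6.61), Il18rap 2.75 times (1.37 to 5.99) and Fasl 2.06 times (0.91 to 5.07). Lower in dKO, beside 7.28% of all genes, were Ccl3 at 0.27 (0.19 to 0.39) and 3 of 9 cargo and processing genes, Cd63 at 0.31 (0.24 to 0.39), Ctsl at 0.34 (0.27 to 0.43) and Lamp1 at 0.34 (0.27 to 0.42). Of 8 NK receptor genes 2 were lower, Slamf7 at 0.42 (0.20 to 0.83) and Klrg1 at 0.45 (0.17 to 1.06). Of 14 adaptors 2 were lower, Tyrobp at 0.32 (0.27 to 0.38) and Fcer1g at 0.46 (0.38 to 0.54). These 2 are genes of myeloid and NK cells, and their Ctrl UMIs lay in few cells, 423 in 10 of 76 for Tyrobp. Most of these calls depended on the 8 Ctrl and 7 dKO Cd3-detected cells that met another gate. Without them, Ccl4 at 4.17 (2.37 to 7.91), Tbx21 at 2.41 (0.78 to 9.89) and Prdm1 at 2.41 (0.88 to 8.20) were still past 2-fold. Stat4 at 1.94 (0.89 to 4.66), Ikzf3 at 1.69 (0.94 to 3.21), Il18rap at 1.99 (0.96 to 4.52) and Fasl at 1.43 (0.60 to 3.77) were not. The direction turned for Ccl3 at 2.71 (0.89 to 11.0), Tyrobp at 3.16 (1.07 to 12.7) and Fcer1g at 4.81 (1.90 to 15.6), with 4, 4 and 5 UMIs left in Ctrl. Lamp1 was at 0.87 (0.52 to 1.48), and Cd63, Ctsl, Slamf7 and Klrg1 had fewer than 20 UMIs left over both libraries.

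In NK-gate cells, 5 of 68 list genes (7.35%) were 2-fold higher in dKO and 5 lower, beside 4.26% of all genes higher and 4.21% lower. The higher genes were Tnf at 6.40 (3.05 to 15.0), Gzmc at 4.43 (1.82 to 12.3), Serpinb9 at 3.24 (2.22 to 4.81), Cd28 at 2.46 (1.01 to 6.38) and Il2rb, a gene of the gate itself, at 2.42 (1.66 to 3.56). All 39 dKO UMIs of Tnf lay in 7 of the 31 gate cells without any of the 8 genes, with 29 in a single cell. The lower genes were Gata3 at 0.31 (0.09 to 0.82), Tnfsf10 (TRAIL) at 0.37 (0.09 to 1.14), Ifng at 0.40 (0.19 to 0.78), Cd244a at 0.40 (0.13 to 1.02) and Prdm1 at 0.44 (0.22 to 0.81). In all Cd3-none cells, 3 of 94 list genes were higher and 7 lower, beside 1.45% of all genes higher and 4.7% lower. Gzmc at 2.59 (1.19 to 5.95), Ccl5 at 2.35 (2.22 to 2.48) and Il2rb at 2.07 (1.48 to 2.91) were higher in dKO. Lower were Ifng at 0.23 (0.14 to 0.35), Klrb1f at 0.34 (0.16 to 0.65), Cd247 at 0.40 (0.22 to 0.69), Xcl1 at 0.42 (0.30 to 0.59), Lef1 at 0.45 (0.22 to 0.87), Lat at 0.48 (0.25 to 0.89) and Gata3 at 0.49 (0.37 to 0.65). Gzmc and Il2rb were thus past 2-fold higher, and Ifng lower, in NK-gate, multi-member and all Cd3-none cells, which share cells.

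Genes detected in the same cells as the members were ranked by the Jaccard index, the number of cells with both genes over the number with either, across the 7664 cells of both libraries and among genes present in at least 20 cells. For Gzma the highest was Klra7 (0.315), then Fasl (0.274) and Klrc1 (0.253). For Gzmb they were Tbx21 (0.276), Fasl (0.247) and Ctsw (0.241). Nkg7 stood closest to Ctsw (0.391), Il2rb (0.333) and Ms4a4b (0.290). Prf1 was nearest to Klra7 (0.324), Klrg1 and Fasl, and Ncr1 to Klra7 (0.273), Xcl1 and Clnk. Klrb1c was nearest to Xcl1 (0.256), Klrc1 and Klra7, Klre1 to Klrb1f (0.257), Klrc1 and Klra7, and Eomes to Fasl (0.296), Sh2d1a and Klra7. Among the 10 genes most alike to each member, 6 were other members for Gzma, Prf1, Ncr1, Klrb1c, Klre1 and Eomes, 5 for Gzmb and 2 for Nkg7. Cells of 1 library share its depth, and these indices describe co-detection only.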

How the data were processed

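Single cell RNA-seq was performed on 2 libraries (10x Chromium, live sorted cells of pooled muscle). The authors deposited UMI counts per gene and barcode, not normalized. The submitters' notes name Cell Ranger 7.0.0, Seurat 4.3.0 and mm10, whereas per the file headers Cell Ranger 3.0.2 made these counts. The study states 2 filters. Of 4527 Ctrl and 3483 dKO barcodes, the limit of 200 genes and 1000 UMIs leaves 4295 and 3306, and the methods' limit of 500 genes leaves 4335 and 3329, the cells used here and the cell numbers in the study's text. Its mitochondrial limit and doublet removal were not applied here. The 192 and 154 barcodes with fewer genes were left out. Doublets were not called, and leaving out cells that pass another class's gate was an alternative. Library totals were 45556596 and 33815155 UMIs.

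UMIs were summed over each group of cells and divided by the group's total (CPM), with exact Poisson, binomial or conditional binomial 95% intervals, a floor of 3 counts and a 2-fold limit among genes with at least 20 UMIs (Python 3.11.15, scipy 1.17.1, pandas 2.3.3). Each gate of a cell class needed 2 of its marker genes. Thinning was to 1000 UMIs. The comparison was tested on simulated data. The 8 genes were named everywhere, list genes when 2-fold apart with at least 20 UMIs (at most 6 per list), except in NK-gate against Cd3-detected cells, where list genes were left unnamed because the gate is a mixture, and except for a list gene that is not reported here, and the 3 most alike genes per member. In multi-member against Cd3-detected cells of Ctrl, Ccl3 was named beyond the limit of 6 per list. The 8 genes and all lists were chosen with earlier results of these data known. The group of Cd3-none cells with 3 or more members, and the values without single cells of Gzmb in NK-gate cells, of death ligand and cytokine genes, or without neutrophil precursor gene cells, and the list values without cells of another gate, were added after the data had been seen. Of 122 list genes, 113 have a row, and the rest, T cell receptor genes and Zfp683, were not analysed here. Motif letters were matched in RefSeq windows of 32851 transcripts' starts.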

Additional observations from a re-analysis of the deposited data

How the results depend on the processing

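Of 48 alternative values of the group results, 30 stayed within their counting interval. With cells of another gate left out, the summed log2 ratio of dKO to Ctrl was 0.0052 in Cd3-detected, 0.44 in NK-gate and 0.53 in multi-member cells, and the NK-gate share of cells was 0.697% in Ctrl and 0.946% in dKO. Without the highest cell of each library the ratio was 1.45 in Cd3-detected, 0.56 in NK-gate, 0.054 in Cd3-none and 0.55 in multi-member cells. With the mean of each cell's own CPM it was 0.31 in NK-gate cells and reversed in Cd3-none (-0.20) and multi-member cells (-0.014), and Gzma in Cd3-none cells was -0.45. The main values were 0.62, 0.84, 0.37 and 0.77. Counting 1 CD3 gene as enough gave 2.58% and 4.12% Cd3-detected cells in Ctrl and dKO. At least 3 of 4 NK genes gave 0.254% and 0.330% NK-gate cells. The share of dKO Cd3-detected cells with a member UMI was 23.6% after thinning to 1000 UMIs, 33.0% at 2000 UMIs and 38.0% unthinned. Of 184 alternative values of single members, 164 stayed within their interval. T cell receptor genes were not analysed here, so Cd3-none cells could not also be required to lack them. No paired analysis was possible because each group is 1 library. Depth limits every count under 20 UMIs.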

Other observations

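Nkg7 was also found outside lymphocytes in the Ctrl library. Cells with at least 2 of Elane, Mpo and Prtn3, genes of neutrophil precursor granules, numbered 30 in Ctrl, and 14 of them carried Nkg7 with 97 UMIs, at most 16 in a cell. These were 19.1% of all Nkg7 UMIs in Ctrl and 24.7% of those in Cd3-none cells. Of the 14 cells, 12 passed the cycling gate, and the 30 cells had 0 UMIs of the other 7 members. The dKO library had 4 such cells, with no UMI of Nkg7. This gate was chosen after the values had been seen, and with 4 cells a comparison between libraries could not be made.

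Klrb1c had 17 UMIs in 15 of 1304 monocyte and macrophage gate cells in Ctrl that were not multi-member cells, and 0 UMIs in 962 such cells in dKO. Gzmb reached at least 11 UMIs in 3 dKO Cd3-none cells with fewer than 3 members. The cell with 23 UMIs of Gzmb had 147 UMIs of Mcpt4, 141 of Cma1, 34 of Cpa3 and 49 of Tpsb2, which are mast cell genes. The other two, with 22 and 11 UMIs of Gzmb, had 5 and 1 UMIs of Foxp3, 2 and 6 of Il2ra and 6 and 4 of Ikzf2.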
